A study of Mus musculus with 8 samples.

Results

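Low sites are cytosines of mast cell poly(A) RNA whose methylation level was below 20% in each of 4 Tet2-deficient libraries. The rule found 208 of the 8492 sites in the deposited table (2.45%), and the other 8284 sites had 20% or more in at least 1 library. Levels were measured by RNA bisulfite sequencing, in which bisulfite turns unmodified cytosine into uracil, so a level is the share of reads in which cytosine remained. The cells were bone marrow derived mast cells of C57BL/6 mice, grown with IL-3 and SCF and checked for surface FcɛRI and c-Kit. The labels give 4 Tet2-/- and 4 wild-type libraries, where a genotype has 2 biological replicates, each split into 2 technical ones. The table, titled by the authors as specific to Tet2 deficiency, holds levels for the Tet2-/- libraries only. Levels in wild-type cells were not analysed here, and nothing below compares genotypes. The table cannot show the expression of mast cell markers: of the defining ones, Il1rl1 and Cpa3 held listed sites, while Kit, Fcer1a, Ms4a2, Cma1, Mcpt4, Tpsb2, Tpsab1, Hdc, Gata2 and Mitf held none.

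Methylation of cytosine at carbon 5 of RNA is placed by enzymes of the NSUN family and by TRDMT1, and it is best known from transfer and ribosomal RNA. In messenger RNA it is bound by the export factor ALYREF and by YBX1. TET2 oxidises 5-methylcytosine in DNA and can do so in RNA. Unmodified cytosine that escapes conversion also counts in a level, and the conversion rate of the lambda control RNA was not used here.

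The low sites were chosen by their levels in all 4 libraries, so those levels are a description and carry no test. The table gives no read numbers, so the depth behind a level is unknown. Positions are on mouse build GRCm38, without strand. Neighbouring sites can be read from the same molecules and are not replicates, so counts of sites have no test either. Values in 4 libraries are given in the order of technical replicates 1 and 2 of biological replicate 1, then 1 and 2 of biological replicate 2. Nothing in the sources says that the biological replicates came from separate mice.

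Sequence could be printed for the 2 listed sites that lie in a RefSeq promoter window of GRCm38.p6, which reaches from upstream of an annotated gene start to just past it. Neither was a low site: both had means below 20%, but several libraries at or above that limit. The mean was 18.5% for Ppm1m and 19.6% for Ranbp9, where site means of the low sites reached 18.6% at most. They are shown because they give the base at the listed position, the capital letter, on the strand of the gene.
Ppm1m, chr9:106199098-106199128, minus strand: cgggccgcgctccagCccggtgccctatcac
Ranbp9, chr13:43480974-43481004, minus strand: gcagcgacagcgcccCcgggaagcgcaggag
The capital in each is a C on the gene's own strand. The site of Ppm1m, a protein phosphatase gene, lay 174 bases upstream of an annotated start and had 15%, 27.3%, 21.1% and 10.5% in the 4 libraries. The site of Ranbp9, a scaffold protein that binds RAN, lay 16 bases upstream of one and had 24.2%, 20%, 20.8% and 13.5%. Both sites lay inside the RefSeq span of their gene, so they are not upstream of the gene as a whole. No low site lay in a promoter window, and no listed site lay in a microRNA hairpin of the RefSeq table.

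The mean level over low sites was 14.4% ± 0.0414 (SD over 2 biological replicates). The means in the single libraries were 14.9%, 13.8%, 14.4% and 14.5%. The libraries of the low sites thus lay close together, with technical replicate 2 of biological replicate 1 the lowest. That library was alone the lowest at 68 of the 208 sites, and technical replicate 1 of the same biological replicate was alone the highest at 64. Over all other listed sites the library means were 54.7%, 50.4%, 50.8% and 54.7%, with a mean of 52.7% ± 0.157 (SD, n = 2). Site means of the low sites ran from 10.5% to 18.6%, with 50% of them between 13.5% and 15.3%. The median difference between the highest and the lowest library of a site was 5.38 points at low sites and 23.1 points at the others. The choice of sites fixes a narrow range: no level in the table is under 10%, and the rule allows none of 20% or more. In 25 low sites every library was below 15%, and in 17 at least 1 library stood at the table's lowest level of 10%.

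**Figure D1:**
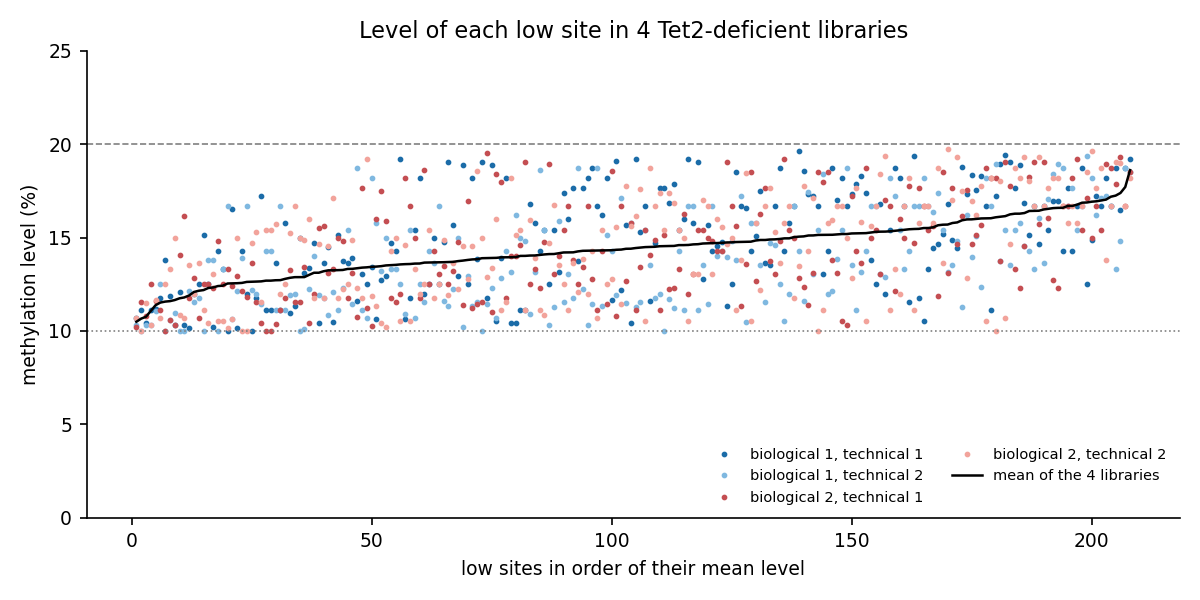
Methylation level in percent (vertical axis) of each of the 208 low sites in the 4 Tet2-deficient libraries (coloured points), with sites in order of their mean (black line). The dotted line is the table's lowest level of 10% and the dashed line the limit of 20%; site means run from 10.5% to 18.6%.

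The limit fell within a continuous range of levels. The highest library lay between 19% and 20% at 29 sites just inside and between 20% and 21% at 54 sites just outside, 28 of them at 20% itself. The member nearest to the limit, at 4259440 on chromosome 13, had 16.8%, 13.1%, 13.1% and 19.8%. Another near member, in Il1rl1 at 40457099, had 14.9%, 18.2%, 15% and 19.6%. Just outside, a site of Cflar at 58718651 on chromosome 1 had 17.4%, 16.7%, 12.5% and 20%. A site of Dgkd at 87905649 on chromosome 1 had 20%, 14.3%, 18.2% and 20%. By mean alone these outside sites lie within the range of the members. In all, 659 sites (7.76%) had a mean below 20%, of which 451 were not low, and their highest library ran from 20% to 37.5%.

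Sites of low level in one biological replicate, as the columns were read here, had a lower mean than all sites in the other. That choice did not use the other replicate, and most of the sites were not below 20% in both of its libraries. If the second number of a column name marks the biological replicate instead, this split is between technical replicates. The sites below 20% in both replicates are the low sites themselves, so their number, 208, is the count of members and no further result. Of all sites, 446 were below 20% in both libraries of replicate 1 (5.25%). Their mean level in replicate 2 was 19.02%, against 51.8% for all sites, and 208 of the 446 (46.6%) were below 20% in both of its libraries. The other way round, 474 sites were below 20% in both libraries of replicate 2 (5.58%). In replicate 1 these had a mean of 19.7%, and the same 208 (43.9%) were below 20% in both libraries. In both directions the mean of the other replicate was higher than in the replicate that chose the sites, where it was 14.8%. Among sites below 20% in 3 libraries, the share also below it in the fourth was 64.2%, 79.7%, 82.2% and 68.2% for the 4 libraries in turn. The sites below it in the fourth are again the 208 low sites. Over all sites that share was 8.88%, 13.6%, 13.7% and 9.55%.

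**Figure D2:**
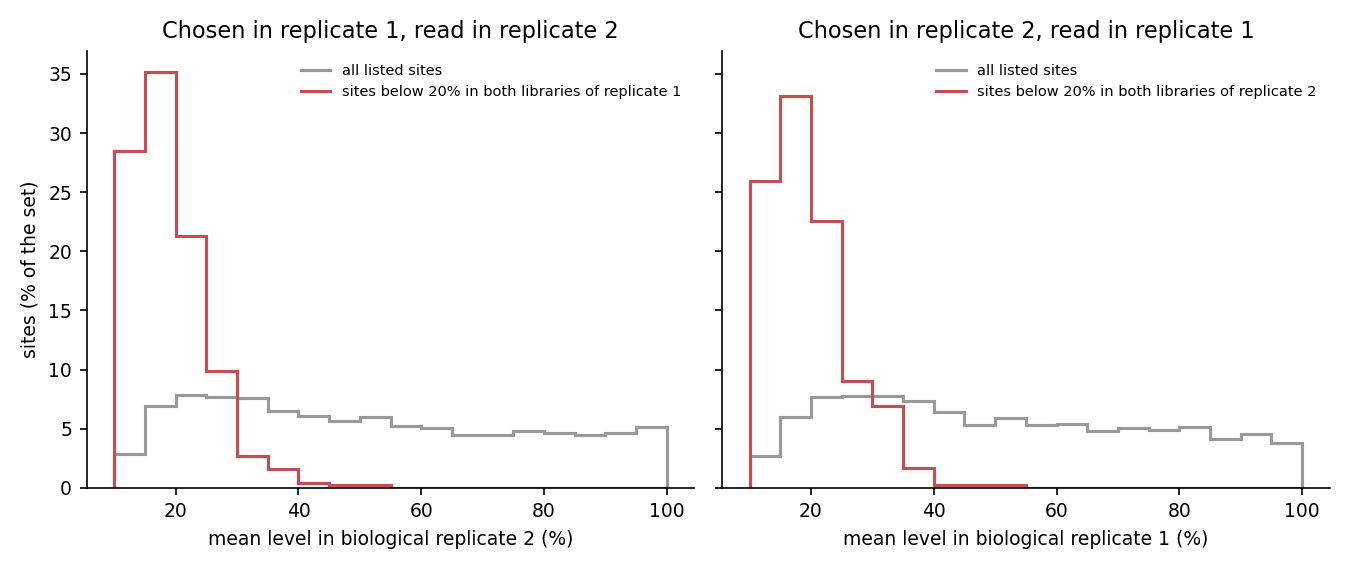
Share of sites in percent (vertical axis) by their mean level in one biological replicate (horizontal axis, steps of 5 points), for sites below 20% in both libraries of the other replicate (red) and all listed sites (grey). The red sets average 19.02% in replicate 2 and 19.7% in replicate 1, and all sites 51.8% and 51.6%.

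A smaller share of the low sites than of the others lay in genes. Of the 208, 99 (47.6%) lay inside the span of a RefSeq gene, against 76.8% of the other listed sites. Without the 2 regions that hold the most low sites, both outside genes, 63.5% of the remaining 156 low sites lay in spans, against 77.8% of the other sites. Sites with a mean below 20% that were not low had 61.4% in spans. The low sites fell in 27 of the 110 genes with listed sites, 23 of them protein-coding and 3 long noncoding RNA genes, with Igh as the last. A site inside a span need not lie in the mature mRNA, since exons and untranslated regions were not analysed here.

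Some genes of receptors and immune ligands had low sites and others, such as Cd200r3 with 0 among 102, had none. Cd200r4, on chromosome 16, which encodes an activating relative of the CD200 receptor, had 11 low sites among 60 listed ones (18.3%). Their means in the 4 libraries were 12.1%, 11.3%, 13.1% and 13.0%, with an overall mean of 12.4% ± 0.977 (SD, n = 2), and the other 49 sites had 31.7%. Of the 11, 8 followed each other from 44822984 to 44823209 with no other listed site between them, at 11.9%. This stretch held the lowest site of the table, at 44823001, with 10.7%, 10.3%, 10.2% and 10.7%. All 4 libraries lay there within 0.51 points, next to the table's lowest level of 10%, which leaves little room for a spread. Cd200r4 has close relatives with which it may share reads, so its sites are uncertain.

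Il1rl1, which encodes the IL-33 receptor ST2, had 9 low sites among 445 (2.02%), a share near the 2.45% of the table. The 9 sites had 16.2%, 14.1%, 14.0% and 15.1% in the 4 libraries, and the other 436 sites of the gene 39.5%. They were scattered over 4619 bases, from 40453250 to 40457868, among sites with means of up to 94.0%. Pairs of low neighbours stood at 40456151 and 40456152 and at 40457865 and 40457868, the last listed positions of the gene. Ulbp1, whose product is bound by NKG2D, had 6 low sites among 226, at 14.5% ± 0.340 (SD, n = 2), and 31.2% at the others. Gpr141, an orphan receptor, had 5 among 314, at 15.1% ± 0.107 (SD, n = 2), all within 165 bases. If the trailing number in a column name marks the biological replicate instead, these SDs are 2.29 points in Ulbp1 and 2.47 points in Gpr141. The SDs of 3 other genes given here would move by over 1.5 times too, to 0.291 points in Cd200r4, 0.143 points in Tbc1d9b and 1.09 points in Trim34a. The olfactory receptor gene Olfr1033 had 2 among 149.

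The immunoglobulin heavy chain locus Igh, expressed by B cells, had 10 low sites among 559 (1.79%), and its other sites had a mean of 66.4%. Of the 10, 9 lay within 45 bases, from 114794241 to 114794285 on chromosome 12, in a region of 16 listed sites. That region had the largest share of low sites, 56.3%, among regions with 5 or more of them. Its 9 low sites had 14.9%, 16.0%, 14.3% and 16.1% in the 4 libraries. No site mean in that region was above 20.4%, while the locus as a whole had higher levels. The last low site of Igh, at 114931161, was 35774 bases from the nearest listed site and had 18.2%, 15.4%, 10.5% and 16.7%. Gene segments of this locus resemble each other and may share reads.

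Among genes of signalling and membrane traffic, Mctp1, a calcium-binding membrane protein, had 9 low sites among 186. They had 14.7%, 14.2%, 15.4% and 13.8% in the 4 libraries, and 7 of them lay within 105 bases, from 76971894 to 76971998 on chromosome 13. That region of 28 sites reached a site mean of 20.6% at most. Inpp4b, a phosphoinositide phosphatase, had 6 low sites among 508 (1.18%) in 5 separate regions over 522041 bases, at 15.2% ± 0.670 (SD, n = 2). Dgkd, a diacylglycerol kinase, had 3 among 29, within 4 bases. Tbc1d9b, of a family of GTPase-activating proteins for RAB GTPases, had 3 among 16, at 14.6% ± 0.934 (SD, n = 2). Regulators of cell death were represented by Cflar, the inhibitor of caspase-8, with 3 low sites among 78, and Bcl2, the inhibitor of mitochondrial cell death, with 2 among 20. The 2 sites of Bcl2, at 106674605 and 106674607 on chromosome 1, had the same levels in every library, 11.1%, 14.3%, 10% and 15.4%. Only these 2 of the 208 low sites (0.962%) had the same 4 values as the adjacent listed site within 10 bases, against 9.45% of the others. Both shares are over all sites of their kind, of which 77.4% and 94.1% had a listed site within 10 bases.

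Of the zinc finger genes with listed sites, some had low sites and others, such as Zfp942 with 0 among 81, had none. Zfp65 had 6 low sites among 23 (26.1%), within 75 bases of each other, and its other sites averaged 22.4%. In the 4 libraries the 6 sites had 17.4%, 12.9%, 12.5% and 12.4%, so technical replicate 1 of biological replicate 1 stood above the other 3. They lay 1166 to 1240 bases from the end of the gene. Zfp369 had 5 low sites among 150, at 14.6%, and Trim34a, of the TRIM family of ubiquitin ligases, had 3 among 28, at 15.9% ± 0.185 (SD, n = 2). Zinc finger and TRIM genes have relatives that may share reads. The long noncoding RNA genes 4933406I18Rik and Gm36408 had 4 among 198 and 3 among 142.

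Of the 32 genes with 1 listed site, 7 had a low one and the rest did not. Besides the lone site of Igh, 6 low sites in genes stood alone, each the only listed site of its gene or of overlapping genes. The gene lists held 1 of these, Eif4b, a factor that stimulates the helicase of translation initiation, with 16.5%, 10.6%, 12.4% and 10.6% at 102095001 on chromosome 15. This position is 2172 bases before the end of the gene. Arhgap45, a GTPase-activating protein, had 11.2%, 11.1%, 11.6% and 11.7% at 80027605 on chromosome 10. Its 4 libraries lay within 0.609 points, also close to the table's lowest level of 10%, and its mean was the fifth lowest of the table. Arid3a, a DNA-binding protein first known from B cells, had 14.7%, 14%, 12% and 11.8% at 79952826 on the same chromosome. Pdcd6ip, which encodes the endosomal sorting protein ALIX, had 10.98%, 11.9%, 13.3% and 15.3% at 113656101 on chromosome 9, 4357 bases before the gene's end. Lrrc45, a centrosomal protein, had 15.8%, 13.2%, 13.3% and 13.9% at 120720719 on chromosome 11, only 409 bases before the end. Zscan25 and the noncoding Gm38740 overlap and share a site at 145280591 on chromosome 5, with 11.1%, 16.7%, 11.1% and 12%. That site lay 1.19% of the way from the start to the end of Zscan25, while those of Arhgap45, Eif4b, Pdcd6ip and Lrrc45 lay between 73.9% and 94.4% of the way along their genes. No such position is given for Arid3a, whose strand was not available, or for sites that were not low, so no pattern is read from these. Lgals8 and Fndc3a, named in addition after their values were seen, had 1 low site each among 10 and 73.

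**Figure D3:**
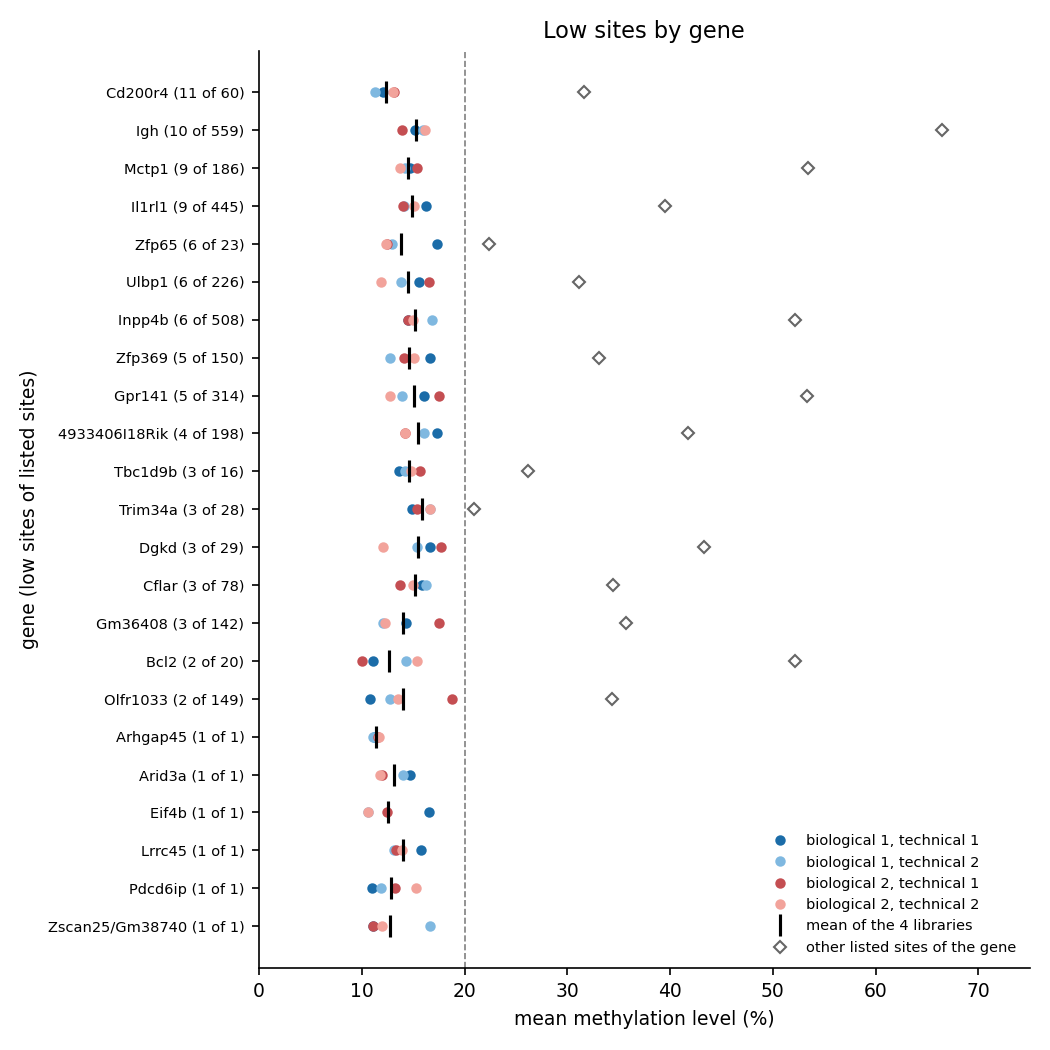
Mean level in percent (horizontal axis) of the low sites of genes with 2 or more low sites, or with low sites only, in the 4 libraries (coloured points) with their mean (tick), and of the other listed sites of the gene (open diamonds), which the rule of membership separates at the site level. The numbers beside each gene are its low sites of its listed sites; the other sites of Igh average 66.4% and those of Trim34a 21.0%.

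The gene lists are set beside the 2.45% of low sites in the whole table, and nothing is read from sites so few. Of 40 mast cell genes, 7 had listed sites and 1, Il1rl1, had low ones, 9 of 794 sites (1.13%). Rab27b, Cd200r3, Tpsg1, Cpa3, Hpgds and Cma2 had no low site. Of 42 genes of IL-3, SCF and FcɛRI signalling, 2 had listed sites, Gab2 and Socs3, and 0 of their 98 sites were low. Of 12 translation genes, Eif4b alone had a listed site, which was low, and of 11 B cell genes Igh alone, with its 1.79%. Neither the 19 genes of RNA cytosine methylation and TET enzymes that matched the annotation nor the markers of neutrophils, monocytes and macrophages, basophils, T cells and erythroid cells had a listed site. A gene can be missing from the table for want of reads, so absence says nothing of its methylation. Among the 21 genes with 100 or more listed sites, 11 had no low site.

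Outside gene spans lay 109 low sites (52.4%), against 23.2% of the other sites. Of these 109, 95 fell in 4 groups of regions, where regions up to 50 kb apart form a group. The first group, on chromosome 6 from 66016186 to 66240994, held 42 low sites among 1177 listed ones (3.57%), 39 of them outside genes. The second, on chromosome 13, held 30 among 172 (17.4%). The third, on chromosome 1 from 101881177 to 101891176, held 17 among 92 (18.5%), all outside genes. The fourth, on chromosome 1 from 34420165 to 34422092, held 9 among 107.

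A single region on chromosome 13, from 4258994 to 4259796, held 30 low sites among 84 and was the largest cluster. Its first low site, at 4259379, lay 918 bases from the noncoding RNA gene Gm40656 and 8793 bases from Akr1c12, an aldo-keto reductase gene. The 30 sites had 16.5%, 12.0%, 13.0% and 16.3% in the 4 libraries. Technical replicate 1 of biological replicate 1 and technical replicate 2 of biological replicate 2 stood higher, as they did over all sites of the table, where the library means were 53.7%, 49.5%, 49.9% and 53.8%. The part of this in the region's values was not tested. From 4259488 to 4259641, 17 low sites followed each other without another listed site, the longest such run. Past the last low site, at 4259697, the next 20 listed sites averaged 30.2%, with a highest site mean of 44.8%. The 18 sites before the first low site averaged 19.3%.

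The region on chromosome 6 from 66093675 to 66094426 held 22 low sites among 73. The first of them lay 139722 bases from the nearest protein-coding gene, 4930544G11Rik. The low sites of this region had 13.9%, 14.3%, 14.3% and 14.1%, closer together than on chromosome 13, but the rule keeps these levels below 20%. Over all 73 listed sites of the region the libraries had 19.2%, 18.0%, 17.3% and 23.9%. Over all 84 of the chromosome 13 region they had 23.1%, 16.3%, 16.8% and 24.7%. The low sites on chromosome 6 are therefore no measure of how close the libraries were. The low sites on chromosome 6 were spread over 691 bases between stretches of higher sites, with a median of 24 bases between successive low sites against 5 on chromosome 13. The region on chromosome 1 from 101888460 to 101890109 held 12 among 48, at 14.1%, 14.0%, 15.6% and 12.1%. Of these 12, 9 followed each other over 77 bases. Single low sites outside genes lay 172 bases from Mrgpra4, a gene of the MRGPR receptor family, and 1195 bases from Scin, which encodes the actin-severing protein scinderin. The site near Mrgpra4 had 17.2%, 11.4%, 10.4% and 11.5%.

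**Figure D4:**
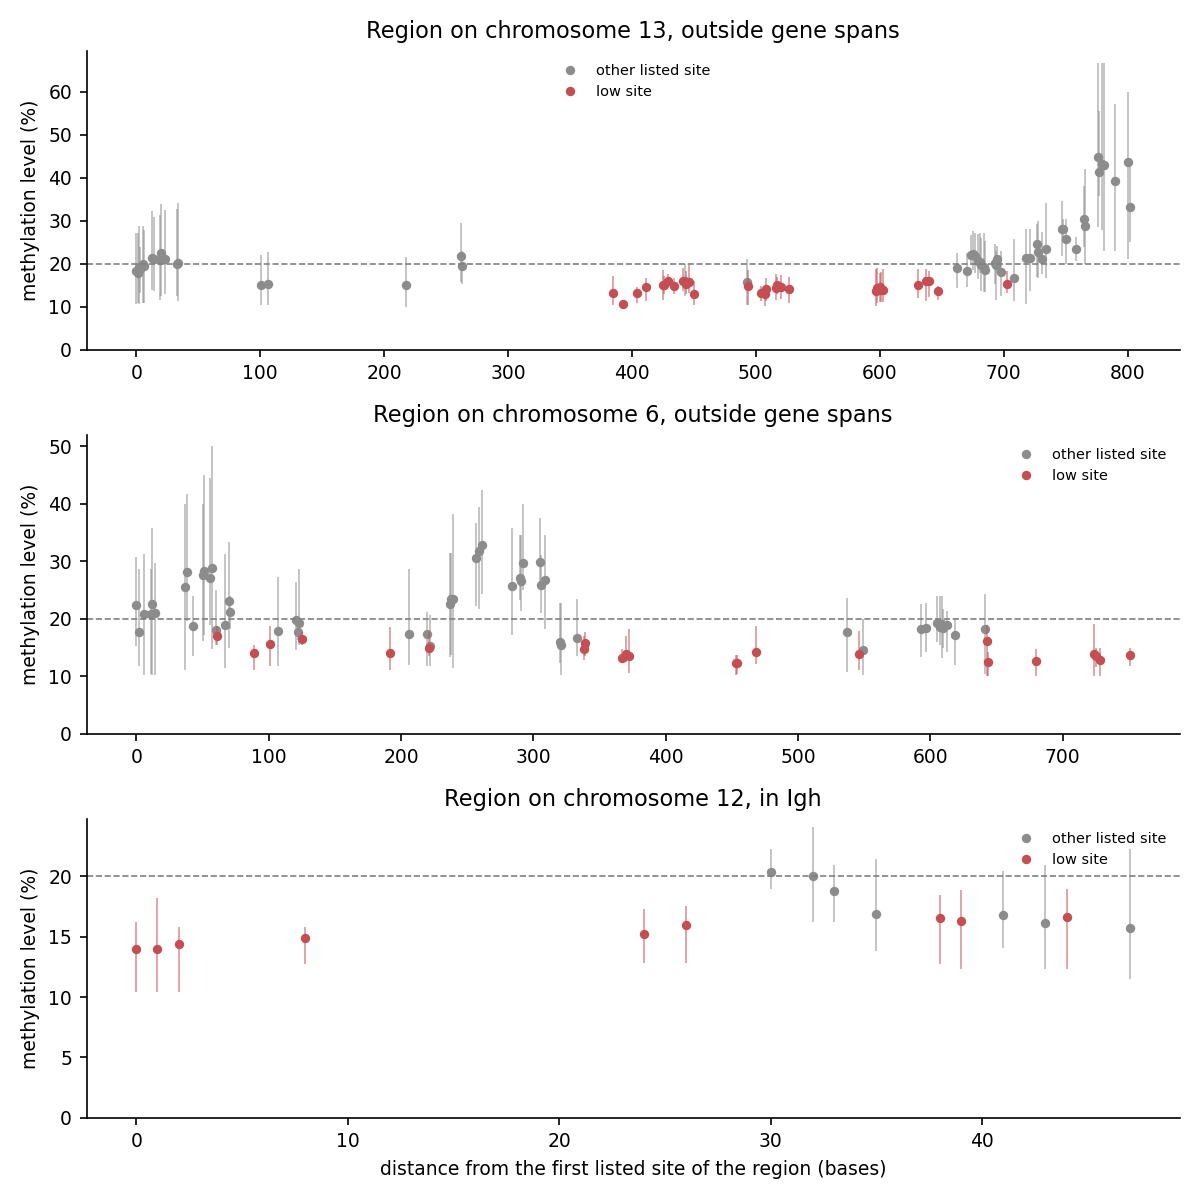
Level in percent (vertical axis) of listed sites by distance in bases from the first listed site of 3 regions: those on chromosomes 13 and 6 with the most low sites and the Igh region with 9. Points are means of 4 libraries, lines run from the lowest to the highest library, low sites are red and the dashed line is 20%; on chromosome 13 the 18 sites before the low stretch average 19.3% and the 20 after it 30.2%.

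Low sites occurred together. They lay in 55 of the 259 regions formed by joining sites up to 500 bases apart. In 27 regions there was 1 low site, and 14 regions with 5 or more held 144 of them. The nearest listed site was also low for 61.1% of low sites, beside 2.45% of low sites in the whole table. Other listed sites close to a low site had low means too: those 1 base away had a median of 17.5%, those 11 to 20 bases away 20.1% and those 201 to 500 bases away 32.2%. In the 47 regions that hold both kinds, the sites that were not low had a median of 31.8%, against 50.1% for all sites that were not low. Low sites did occur in regions of high level: 31 lay in the 12 regions with a mean of 40% or more, and the region of the highest mean among these, in Mctp1, had 74.1%.

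Low sites stood further from listed neighbours than the others did. Another listed site lay within 10 bases of 77.4% of low sites and of 94.1% of the others. The median distance to the nearest was 3 bases for low sites and 2 for the others. The share with a close neighbour was larger at higher levels: it was 81.6% for all sites with a mean under 20%, 91.8% from 20% to 30% and 97.6% at 90% or more. Of the 536 sites without a listed neighbour within 10 bases, 47 were low (8.77%), and of the 48 sites alone in their region, 8 were low (16.7%). Sites under 10% are not listed, so a stretch of low level loses neighbours from the table, and the part of this in the spacing was not tested. The first or last site of a region was low in 24 cases, which is 11.5% of low sites against 5.38% of the others. The 24 include the 8 low sites alone in their region. In the regions with a low site, 3.08% of the other sites were first or last. Of the 422 first or last sites of regions with 2 or more sites, 16 were low (3.79%). A place at the end of a region was not particular to the low sites. Of all 659 sites with a mean under 20%, low or not, 13.7% were first or last in their region.

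**Figure D5:**
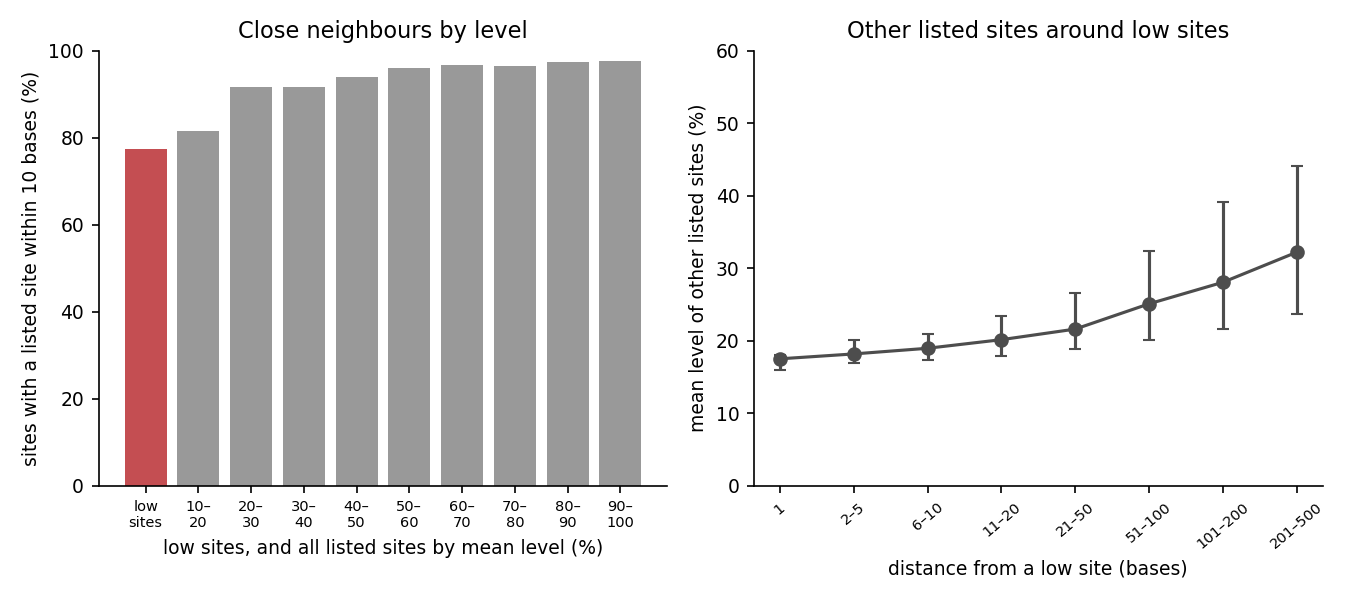
Left, share of sites in percent with another listed site within 10 bases, for low sites (red) and for all listed sites by mean level (grey); it is 77.4% for low sites and 97.6% at 90% or more. Right, median mean level in percent of other listed sites by distance in bases from a low site, with bars for the middle 50%; it is 17.5% at 1 base and 32.2% at 201 to 500 bases.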

How the data were processed

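Poly(A) RNA of mast cells was converted with bisulfite and sequenced as stranded paired-end libraries, per the labels' protocols. Each cell of the deposited table is a methylation rate, per the file headers, which is a fraction and was turned into percent here. Builds mm10 and GRCm38 are named in the submitters' processing notes. Aligner, caller, coverage minimum and the rule of group specificity were "not given in the sources used here". All 8492 rows were used, with 0 repeated positions and 0 empty cells, and levels ran from 10% to 100%. No read numbers were analysed, so depth per sample and its precision are unknown.

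Column names were read as biological, then technical, replicate. Technical replicates were averaged, and SDs are over 2 biological replicates. With the second number read as biological, the SD of the mean level of low sites is 0.365 points and not 0.0414. Sites were assigned to RefSeq gene spans of GRCm38.p6, and 1 low site lay in 2 spans. Of 160 entries in 10 gene lists, 159 matched. Nearest gene and promoter windows come from the same annotation. The functions recovered known values on simulated data.

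Named genes were the 15 with the most low sites, those with only low sites and list members with one. Single sites were drawn from the 5 of lowest mean, the 5 of highest mean and 5 on either side of the limit. Only some of these single sites are named above, and none of the 5 of highest mean. Just outside the limit 28 sites tied at 20%, and the 5 were the first of them by chromosome and position. Bcl2, Olfr1033, Lgals8 and Fndc3a, and the regions outside genes, were named after their values were seen, and 1 gene is not reported here. The members and lists were chosen with earlier results of these data known. Alternatives were other limits, means for single libraries, leaving out replicates, other distances and other spans. Figures used matplotlib 3.10.9, and tables pandas 2.3.3, numpy 2.4.6 and scipy 1.17.1 under Python 3.11.15.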

Additional observations from a re-analysis of the deposited data

Results flagged for a closer look

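A library far from the rest was sought in 34 values (the overall mean, each gene with low sites and regions of 5 or more low sites outside genes), and 3 values had one, where chance gives about 1 in 20. That rate is for independent values of free range: these libraries include technical replicates, and the choice of sites holds every level between 10% and 20%, so the 3 are given as a description. In Zfp65 the low sites had 17.4% in technical replicate 1 of biological replicate 1 and 12.4% to 12.9% in the others. At the site shared by Gm38740 and Zscan25, technical replicate 2 of biological replicate 1 had 16.7% and the others 11.1% to 12%. In the region from 34420165 on chromosome 1, technical replicate 2 of biological replicate 2 had 17.6% and the others 15.05% to 15.2%. Each case was in a different library, and no cause was tested.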

How the results depend on the processing

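The number of low sites follows the limit: 208 became 25 at 15%, 487 at 25%, 659 with the mean of 4 libraries below 20%, 414 with both replicate means below it and 446 to 474 with a replicate left out. The regions with a low site, 55, became 13, 90, 104 and 84 in the same order, and 83 to 88 with a replicate left out. The mean level, 14.4%, became 12.2%, 16.3%, 16.8% and 15.7%, and 16.9% to 17.3% with a replicate left out; these are fixed by the rule. The share inside gene spans, 47.6%, became 55.6% at 25%, 57.1% by the mean, 55.6% by replicate means, 53.6% to 62.0% with a replicate left out, 39.4% for protein-coding spans and 63.5% without the 2 regions with the most low sites, an alternative chosen after seeing the data. The share with a low nearest site, 61.1%, became 36% at 15%, 69.6% at 25%, 74.8% by the mean, 68.8% by replicate means and 66.9% to 67.5% with a replicate left out. The share with a neighbour within 10 bases, 77.4%, became 65.4% within 5 bases, 88.5% within 20 bases and 80.9% to 83.3% with a replicate left out. The share at the ends of regions, 11.5%, became 18.8% with sites joined up to 100 bases and 12.1% to 12.4% with a replicate left out. Of 60 alternatives, 28 moved a count by no more than 1.5 times, the mean by less than its SD or a share within its 95% exact binomial interval, which treats sites as independent and covers counting error only. No paired analysis was possible because only Tet2-deficient libraries were analysed. With no read numbers, no limit from depth can be given.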
